A study of Rattus norvegicus with 22 samples.

Results

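The expression of 10 genes of lipoxygenase and leukotriene metabolism was examined in rat tongue cancer: Alox5, Alox5ap, Lta4h, Ltc4s, Ltb4r, Alox12, Alox15, Alox12b, Aloxe3 and Ephx2. They were found by gene name among the 19167 gene symbols of the array, and all 10 were measured, each by 1 probe. The data came from 11 matched pairs of oral squamous cell carcinoma (OSCC) and adjacent phenotypically normal tongue, 1 pair per animal, each piece on a one-color Agilent array of 30367 probes. Both groups came from male F344 rats that had received 4-NQO (4-nitroquinoline 1-oxide, a carcinogen that gives rise to tongue tumors), dissolved in their water at 20 ppm, over 10 weeks, with first exposure at 7 to 9 weeks of age. Tissues were harvested 23 to 26 weeks after first exposure, at about 33 weeks of age. The normal pieces therefore shared the carcinogen exposure, although their labels list no treatment and the titles of all 22 arrays carry the word untreated. No tissue of unexposed rats was analysed here.

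Lipoxygenases add oxygen to polyunsaturated fatty acids, and different family members work in different cells. In leukocytes, 5-lipoxygenase (Alox5) with its membrane partner FLAP (Alox5ap) converts arachidonic acid to leukotriene A4, from which Lta4h makes the neutrophil attractant leukotriene B4 and Ltc4s makes the cysteinyl leukotriene C4. In stratified epithelium, Alox12b and Aloxe3 act in sequence on the linoleate of acylceramides, a step needed to build the lipid envelope of cornified cells and the skin's water barrier.

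The 60-base probes of the 6 genes on which the results turn are shown because each gene rests on 1 probe and because lipoxygenases are related in sequence. Capitals mark the longest run that a probe shared with the probe of any other lipoxygenase on the array (Alox15b and Alox12e included); Alox5ap and Ephx2 are not lipoxygenases and have none marked.
Alox5: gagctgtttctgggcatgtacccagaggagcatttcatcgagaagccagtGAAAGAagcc
Alox5ap: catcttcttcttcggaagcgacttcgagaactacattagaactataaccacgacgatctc
Alox12: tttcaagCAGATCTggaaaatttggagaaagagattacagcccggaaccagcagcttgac
Alox12b: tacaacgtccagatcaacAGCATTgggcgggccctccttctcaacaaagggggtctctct
Aloxe3: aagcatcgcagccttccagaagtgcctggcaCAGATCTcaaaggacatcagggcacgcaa
Ephx2: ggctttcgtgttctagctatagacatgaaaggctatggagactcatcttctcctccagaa
The longest such run was 6 bases for Alox5 and for Alox12b and 7 bases for Alox12, Alox15 and Aloxe3. In any ungapped alignment, at most 29 of the 60 bases matched another lipoxygenase's probe. Only probes were compared, so this does not show that a probe is specific. The match of a probe to the rest of another lipoxygenase's mRNA was not examined. On the rn4 assembly that the array annotation uses, the probes lay at chr4:152610831-152612409 (minus strand, Alox5), chr12:6246233-6246292 (minus, Alox5ap), chr10:57081456-57081515 (minus, Alox12), chr10:55926235-55926294 (plus, Alox12b), chr10:55908152-55908211 (plus, Aloxe3) and chr15:45535737-45538220 (minus, Ephx2). All 10 probes were annotated to RefSeq mRNAs and are thus exonic. The 60 bases of the Alox5 and Ephx2 probes spanned 1579 and 2484 bases of the genome, so that they crossed an exon junction.

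Aloxe3 and Alox12b lie on the same strand of chromosome 10, separated in the RefSeq annotation of the GRCr8 assembly only by Rpl37al1, and their promoters are shown because these neighbors gave different values below. Each sequence runs from 250 bases before to 50 bases after the start of the gene in RefSeq, and capitals mark GGGCGG (the core of an Sp1 site) on either strand.
Aloxe3, chr10:54329848-54330147 (GRCr8, plus strand): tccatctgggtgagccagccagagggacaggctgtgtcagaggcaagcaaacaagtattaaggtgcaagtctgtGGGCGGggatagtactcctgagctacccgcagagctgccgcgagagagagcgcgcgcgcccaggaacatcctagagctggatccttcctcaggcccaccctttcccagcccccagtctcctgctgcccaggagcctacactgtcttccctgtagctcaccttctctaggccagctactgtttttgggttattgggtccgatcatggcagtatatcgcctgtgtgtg
Alox12b, chr10:54361648-54361947 (GRCr8, plus strand): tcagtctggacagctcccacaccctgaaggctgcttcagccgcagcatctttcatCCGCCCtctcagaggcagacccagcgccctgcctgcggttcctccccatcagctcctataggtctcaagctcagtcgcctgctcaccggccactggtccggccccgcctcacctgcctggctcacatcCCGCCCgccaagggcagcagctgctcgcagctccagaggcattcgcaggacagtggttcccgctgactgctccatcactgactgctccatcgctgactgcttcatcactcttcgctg
RefSeq promoters were read for 7 of the 10 genes (Alox5, Lta4h, Ltc4s, Ltb4r, Alox12, Alox12b and Aloxe3). GGGCGG was present in 5 of these 7, with 1 copy for Aloxe3, 2 for Alox12b, 1 for Alox5, 1 for Lta4h and 3 for Alox12, and in 33.1% of all 33469 promoters of the same length. Neither TATAAA nor TGANTCA (the core of an AP-1 site) occurred on either strand in any of the 7, against 14.2% and 7.33% of all promoters.

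Levels are given as the log2 signal minus the 75th percentile of the array, so that 0 is the signal of the 75th percentile probe and 1 unit is 2-fold. A probe was called when the limma fit with rat and tissue as terms gave a Benjamini-Hochberg adjusted p under 0.05 over all 30367 probes and a difference of at least 2-fold. By this rule 3 of the 10 genes were called, Alox5ap and Alox12b as higher and Ephx2 as lower in OSCC, against a background of 13.8% of all probes in either direction (6.86% higher and 6.97% lower). The median log2 difference, OSCC minus normal, was 0.09 over the 10 genes and -0.24 over all probes. Of the 10 genes, 6 were well above background on all 22 arrays, and no array was saturated for any of them.

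Several features of the arrays touch all results. All normal arrays were scanned on 1 day and 9 of the 11 OSCC arrays on another, so that only rats 4 and 9 have both tissues scanned on 1 day, and no slide held both tissues. Between 48.4% and 56.1% of probes were well above background on the normal arrays and between 52.3% and 65.5% on the OSCC arrays. Of 8 basal keratinocyte markers, 7 were well above background on all 22 arrays. Among 10 skeletal muscle markers, 9 were well above background throughout. Of these 10 markers 7 were lower in OSCC and 1 (Myh2) was higher, but their mean log2 difference was 1.29 to 1.84 in rats 21, 22 and 24 and -3.51 to -0.70 in the other 8 rats. These 3 pairs therefore stood apart, and results are also given without them. The 3 rats were set apart by values of these same data. Differences and adjusted p values without them are therefore descriptions and not independent tests. Serous gland markers were higher in OSCC for 7 of 7 genes. In pieces of whole tissue, fewer cells of a type and less RNA per cell cannot be told apart.

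**Figure D1:**
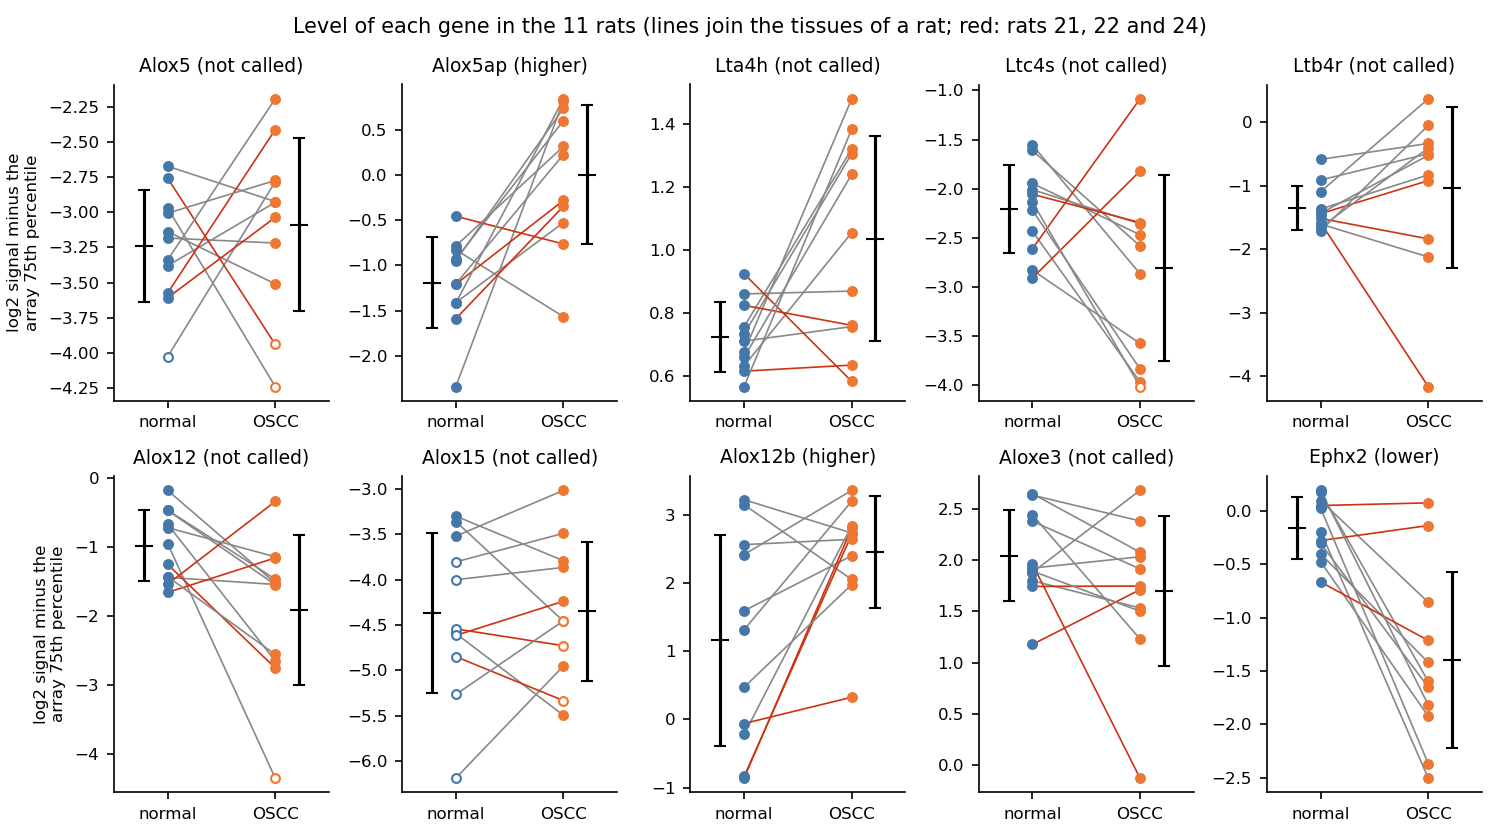
Level of each of the 10 genes in normal tissue (blue) and OSCC (orange), as log2 signal minus the 75th percentile of the array, with lines joining the tissues of a rat (red for rats 21, 22 and 24), open circles for arrays on which the probe was not well above background, and bars for the mean and SD of 11 rats. Alox5ap and Alox12b were called higher and Ephx2 lower, and Ephx2 has 9 of 11 OSCC pieces under the lowest normal piece.

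Alox5ap, which encodes the membrane protein that presents arachidonic acid to 5-lipoxygenase, was higher in OSCC. Its level ran from -2.34 through a median of -1.20 to -0.46 in normal tissue and from -1.57 through 0.23 to 0.84 in OSCC. The groups overlapped, with 8 of 11 OSCC pieces above the highest normal piece. The log2 difference was 1.20 ± 0.30 (SE, n = 11 pairs), or 2.29-fold, at an adjusted p of 0.00867. OSCC was the higher tissue in 9 of 11 pairs, all but rats 17 and 21, with the largest difference, 3.16, in rat 11. The mean of rats 4 and 9, scanned on 1 day, was 1.21, and without rats 21, 22 and 24 the difference was 1.41. Without rat 11 it was 1.00 to 2 decimals, just under the 2-fold limit, at an adjusted p of 0.0170, and scaling to the array median also took it under that limit (0.99, adjusted p = 0.0120).

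Alox5 itself, the enzyme of the first step of leukotriene synthesis, was dim and not called. Normal tissue ranged from -4.03 (median -3.18) to -2.67 and OSCC from -4.24 (median -2.93) to -2.20. The groups overlapped, with 2 OSCC pieces above and 1 below the normal range, and the probe was well above background in 10 normal and 9 OSCC pieces. The log2 difference was 0.15 ± 0.25 (SE, adjusted p = 0.619), with 6 pairs higher and 5 lower, and its sign turned when arrays were scaled to their median (-0.05) or quantile normalized (-0.04).

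Within each rat the difference of Alox5ap exceeded that of Alox5 in 11 of 11 pairs, by 0.08 (rat 24) to 1.91 (rat 11), with a mean of 1.04 ± 0.58 (SD). This gap between partners of the same reaction is given as a description. For dim probes such as Alox5, signal near background can narrow or shift a difference. In this scaling the 6 further pathway genes below background on every array had log2 differences of -0.86 to -0.55. The part of background signal in the gap was not tested.

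The steps after leukotriene A4 gave no call. Lta4h, the hydrolase that makes leukotriene B4, ranged from 0.57 (median 0.71) to 0.92 in normal tissue and from 0.58 (median 1.05) to 1.48 in OSCC. Of the OSCC pieces, 6 lay above the highest normal piece, and OSCC was the higher tissue in 9 pairs, all but rats 21 and 24. The log2 difference of 0.31 ± 0.13 (SE) had an adjusted p of 0.0680, and without rats 21, 22 and 24 it was 0.48 at an adjusted p of 0.00931, still under 2-fold.

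Ltc4s, the synthase of leukotriene C4, ranged from -2.91 (median -2.13) to -1.55 in normal tissue and from -4.01 (median -2.58) to -1.09 in OSCC. OSCC was the lower tissue in 9 pairs and the higher in rats 22 and 24, and 4 OSCC pieces lay below the lowest normal piece. Its log2 difference of -0.60 ± 0.30 (SE, adjusted p = 0.116) did not pass the test. Without rats 21, 22 and 24 it was -1.11 at an adjusted p of 0.00113, a call. This was the only call of Ltc4s among 12 alternatives, and leaving out 1 rat gave none. After normexp background correction its difference was -0.21 (adjusted p = 0.910). Mast cells are rich in this enzyme. Of 10 mast cell markers, 3 (Cma1, Ms4a2 and Hdc) were called lower in OSCC and none was called higher. Over the 10, log2 differences ran from -1.65 to 0.87. Their summed level was 5.42 to 14.4 in normal tissue and 1.08 to 21.5 in OSCC (in units of the 75th percentile signal). Only Mcpt1 was below background on every array. The mean difference of these markers was 0.75 and 0.18 in rats 25 and 26, where Ltc4s was lower by the most (-1.61 and -1.88). It was -0.79 and -0.98 in rats 22 and 24, where Ltc4s was the higher in OSCC (1.09 and 1.52). In rat 11 it was 0.93 and Ltc4s differed by -0.75. Both were lower in OSCC in rats 4, 9, 13, 16, 17 and 21. The part of mast cells in the Ltc4s values was not tested.

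Ltb4r, the high-affinity receptor for leukotriene B4, ranged from -1.71 (median -1.44) to -0.59 in normal tissue. In OSCC it ranged from -4.16 (median -0.52) to 0.36, so that the OSCC pieces reached beyond the normal ones on both sides, 6 above and 3 below. The log2 difference was 0.32 ± 0.33 (SE, adjusted p = 0.418), with 8 pairs higher and rats 17, 22 and 24 lower. Rat 24 alone gave -2.58, and without rats 21, 22 and 24 the difference was 0.74 at an adjusted p of 0.0191.

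Markers of leukocytes, fibroblasts and endothelium are given beside Alox5ap. Of 6 pan-leukocyte markers 4 were higher in OSCC (Itgb2 by 2.62, Cd53 by 2.08, Lcp1 by 1.74 on the log2 scale, and Ptprc), with a summed level of 6.94 to 15.2 in normal tissue and 8.75 to 44.5 in OSCC and all 6 well above background on all arrays. Of 12 neutrophil markers 8 were higher, with a summed level of 1.74 to 5.88 in normal tissue and 3.28 to 402 in OSCC, and Mpo and Ngp were below background on every array. Of 11 macrophage markers 7 were higher (summed levels 17.1 to 39.7 and 27.0 to 87.7). Of 5 eosinophil markers none differed by 2-fold and 4 were below background on every array. Of 6 fibroblast markers 5 were higher, with summed levels of 53.2 to 94.2 in normal tissue and 49.5 to 440 in OSCC and all 6 well above background throughout. The mean difference of the pan-leukocyte markers was 3.04 in both rats 11 and 25, where Alox5ap differed most (3.16 and 2.25), and 0.37 and 0.73 in rats 17 and 21, where Alox5ap was the lower in OSCC. It was lowest, however, in rats 22 and 24 (-0.57 and 0.21), where Alox5ap was the higher in OSCC by 0.93 and 1.24. The macrophage markers had mean differences of 2.27 and 1.89 in rats 11 and 25, -0.24 and 0.25 in rats 17 and 21, and 0.70 and 1.28 in rats 22 and 24. Those of the neutrophil markers, in the same order, were 3.62 and 2.47, 0.72 and 1.00, and 0.79 and 0.07. For the fibroblast markers the mean difference was 2.66 and 2.42 in rats 11 and 25, -0.92 and 0.14 in rats 17 and 21, and 0.73 and 0.71 in rats 22 and 24. Of 6 endothelium markers 0 were called. Their mean difference was -0.14 and -0.06 in rats 11 and 25, -1.28 and -0.90 in rats 17 and 21, and 0.01 and 0.56 in rats 22 and 24. The part of leukocyte, fibroblast or endothelial content in the Alox5ap difference was not tested.

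Of the other lipoxygenases, Alox12, the platelet-type 12-lipoxygenase that is also made in stratified epithelium, ranged from -1.66 (median -0.96) to -0.18 in normal tissue and from -4.35 (median -1.55) to -0.35 in OSCC. Of the OSCC pieces, 4 lay below the lowest normal piece, and OSCC was the lower tissue in 9 of 11 pairs. The log2 difference of -0.93 ± 0.34 (SE) had an adjusted p of 0.0429 but was 1.91-fold, so Alox12 was not called. It passed 2-fold under quantile normalization (-1.03, adjusted p = 0.0414), under scaling to the array median (-1.13, adjusted p = 0.0125) and without rats 21, 22 and 24 (-1.31, adjusted p = 0.00624). Leaving out rat 21 or rat 22 alone, the 2 rats in which OSCC was the higher tissue, also gave a call (-1.14 and -1.08). Leaving out any 1 of the other 9 rats instead gave adjusted p values of 0.0539 to 0.0845. After normexp background correction the difference was -0.43 (adjusted p = 0.349), and a paired t-test gave an adjusted p of 0.0673. Of 5 platelet markers Pf4 and Ppbp were higher in OSCC and Gp9 and Gp1ba were below background on every array, with summed levels of 2.46 to 4.92 and 2.57 to 13.5.

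Alox15, the 12/15-lipoxygenase of macrophages and other cells, was close to background. It was well above it in 3 normal and 7 OSCC pieces, with levels of -6.19 (median -4.54) to -3.30 in normal tissue and -5.50 (median -4.46) to -3.02 in OSCC. The log2 difference of 0.02 ± 0.21 (SE, adjusted p = 0.944) had 6 pairs higher and 5 lower, and its sign turned under scaling to the array median (-0.18) and quantile normalization (-0.03).

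Alox12b, the 12R-lipoxygenase that oxidizes the linoleate of acylceramides, was higher in OSCC. Normal tissue ranged widely, from -0.86 (median 1.32) to 3.22, with an SD of 1.55, while OSCC ran from 0.33 (median 2.72) to 3.36 with an SD of 0.82. The groups overlapped, with 1 OSCC piece above the highest normal piece and 4 normal pieces below the lowest OSCC piece. The log2 difference was 1.30 ± 0.44 (SE), or 2.46-fold, at an adjusted p of 0.0325, with OSCC the higher tissue in 9 pairs and the lower in rats 4 and 16. The call was the least firm of the 3. In rats 4 and 9, scanned on 1 day, the mean difference was -0.20, and the fit with scan day as a term, which rests on these 2 pairs, gave -0.20 at an adjusted p of 0.890. It was also lost without rats 21, 22 and 24 (0.84, adjusted p = 0.100) and on leaving out any 1 of 6 rats (11, 13, 21, 22, 25 or 26).

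Aloxe3, the epoxyalcohol synthase that acts on the product of Alox12b, was not called. Its levels were 1.18 (median 1.92) to 2.65 in normal tissue and -0.13 (median 1.75) to 2.68 in OSCC. The groups overlapped, and the OSCC pieces of rats 24 and 26 were the lowest and the highest of all 22. The log2 difference was -0.34 ± 0.23 (SE, adjusted p = 0.219), with 4 pairs higher and 7 lower.

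The difference of Alox12b exceeded that of its neighbor Aloxe3 in 10 of 11 pairs, by a mean of 1.64 ± 1.37 (SD) and by up to 3.66 in rat 21. Rat 4 was the exception, at -0.24. The gap was also narrow in rats 16 (0.11), 26 (0.14) and 9 (0.54), and it was at least 1.07 in each of the other rats.

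Alox12b moved beside markers of cornified cells. Of 13 cornified keratinocyte markers 6 were called higher in OSCC, 7 were not called and none was called lower. Over the 13, log2 differences ran from -0.91 to 2.99 with a median of 1.05. Among the 6 were Klk7 (2.99), Dsc1 (2.30), Flg (1.89) and Krt10 (1.66). The summed level of the 13 markers was 46.1 to 384 in normal tissue and 84.1 to 495 in OSCC. None of the 13 was below background on every array. In rats 11, 21 and 22, where Alox12b differed most (3.06, 3.67 and 3.55), the mean difference of these markers was 2.42, 3.45 and 2.52. The same rats had the lowest normal levels of Alox12b (-0.22, -0.86 and -0.84). Their OSCC levels (2.84, 2.81 and 2.72) were near the OSCC median of 2.72. In rats 4 and 16, where Alox12b was the lower in OSCC, it was -0.34 and -0.28. The part of cornified cell content in the Alox12b difference was not tested.

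Ephx2, the soluble epoxide hydrolase that turns fatty acid epoxides into diols, was lower in OSCC. It ranged from -0.66 (median -0.19) to 0.19 in normal tissue and from -2.50 (median -1.60) to 0.08 in OSCC. Of the OSCC pieces, 9 lay below the lowest normal piece, and those of rats 22 and 24 lay within the normal range. The log2 difference was -1.24 ± 0.25 (SE), or 2.36-fold lower, at an adjusted p of 0.00248, with OSCC the lower tissue in all pairs but those 2. Rats 4 and 9 gave a mean of -1.40, and without rats 21, 22 and 24 the difference was -1.66 at an adjusted p of 0.000144. The call held on leaving out each of the 11 rats in turn, but not under every other setting. After normexp background correction the difference was -0.89 (adjusted p = 0.0153), under 2-fold. With scan day as a term, a fit that rests on rats 4 and 9, the adjusted p was 0.120.

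Skeletal muscle markers had summed levels of 1114 to 2353 in normal tissue and 83.8 to 2483 in OSCC. Their mean difference was positive in rats 21, 22 and 24, in which Ephx2 differed by -0.55, 0.02 and 0.14, and negative in the other 8 rats, in which Ephx2 differed by -2.39 to -0.95. Of 6 adipocyte markers 0 were called by limma, where 2 (Fabp4 and Lep) had an unadjusted p under 0.05 at less than 2-fold. Their summed levels were 4.98 to 18.9 in normal tissue and 2.24 to 21.5 in OSCC, and Lep was below background on every array. The adipocyte markers split the same rats, with a mean difference of 2.21 to 2.33 in rats 21, 22 and 24 and of -2.54 to 0.07 in the other 8. The part of muscle or fat content in the lower Ephx2 was not tested.

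**Figure D2:**
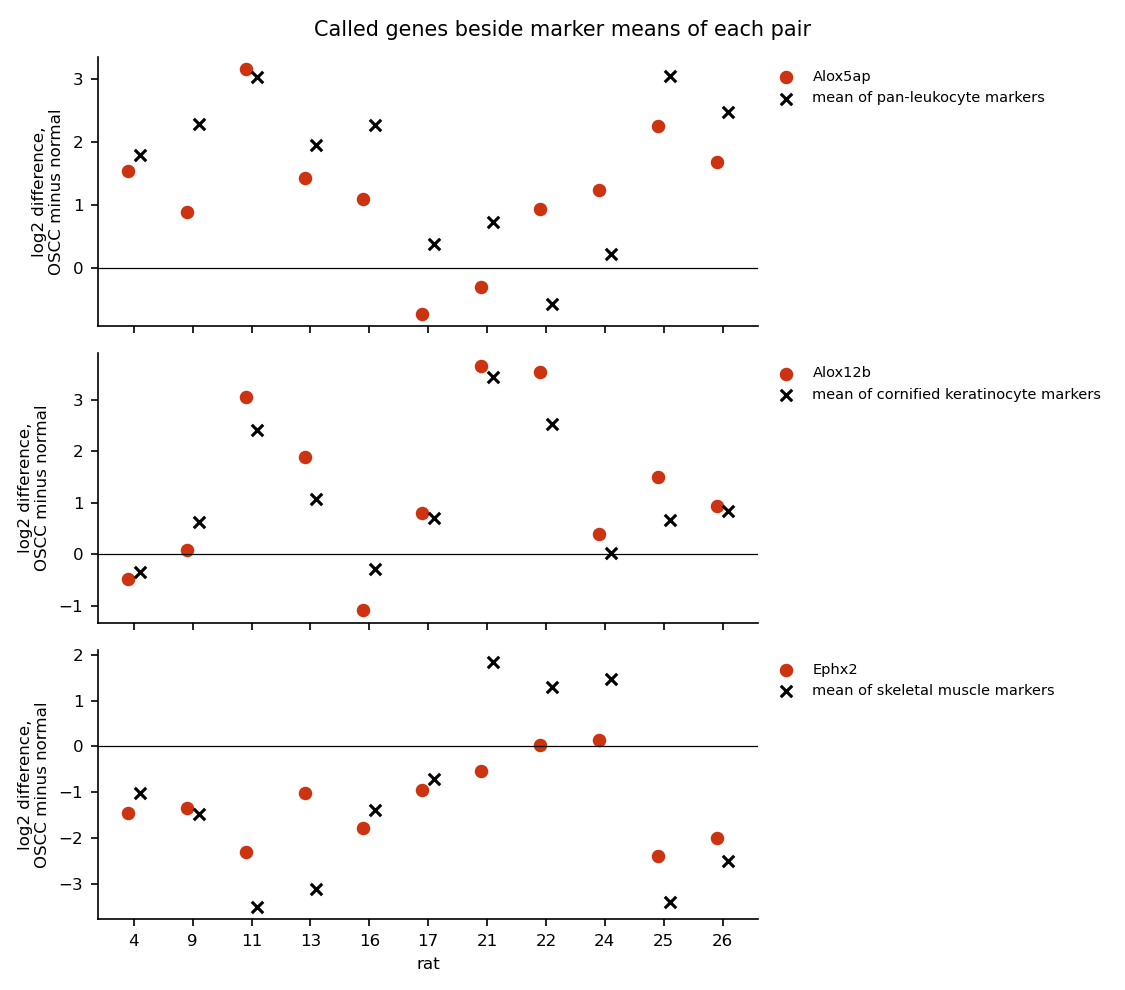
Log2 difference, OSCC minus normal, of Alox5ap, Alox12b and Ephx2 (red) in each of the 11 rats, beside the mean log2 difference of the pan-leukocyte, cornified keratinocyte and skeletal muscle markers (crosses). Rats 21 and 22 have the largest Alox12b differences (3.67 and 3.55) and rats 22 and 24 are those in which Ephx2 was not lower.

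The leukocyte genes were then set against the epidermal genes in each rat, as the mean difference of Alox5 and Alox5ap minus that of Alox12b and Aloxe3. The leukocyte mean was 0.67 ± 0.94 (SD, n = 11 rats) and the epidermal mean 0.48 ± 1.07. Their gap was 0.20 ± 1.39 (SD), positive in 8 rats and negative in rats 17, 21 and 22, from -2.58 in rat 21 to 2.05 in rat 24. The mean gap was small beside its spread, and each side joined a called gene to a gene that was not. Without rats 21, 22 and 24 the gap was 0.50, and in rats 4 and 9 it was 0.81. No test was made of this score because its genes were chosen with earlier results of these data known.

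**Figure D3:**
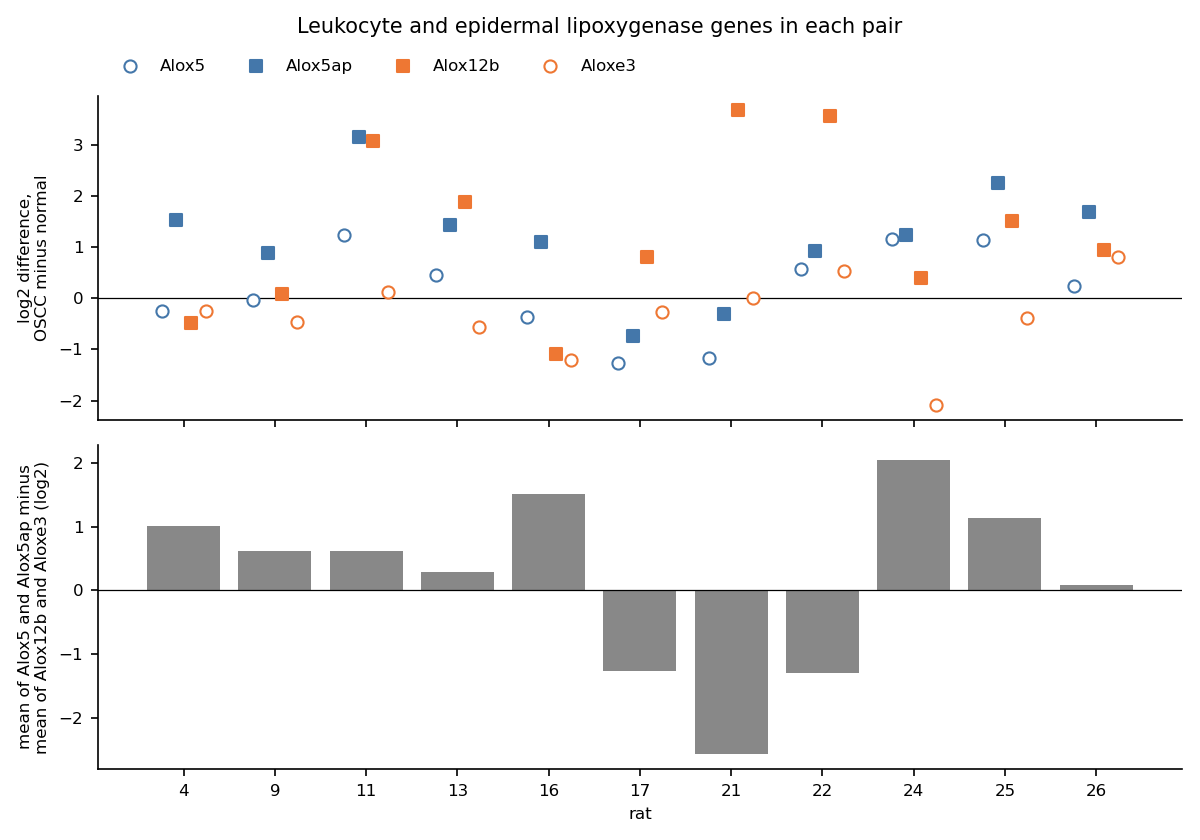
Top, log2 difference (OSCC minus normal) of Alox5 and Alox5ap (blue) and of Alox12b and Aloxe3 (orange) in each of the 11 rats. Bottom, the mean of the leukocyte genes minus the mean of the epidermal genes, which is negative in rats 17, 21 and 22 and runs from -2.58 to 2.05.

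Among 28 further genes of the pathway, 27 were measured, and 5 (18.5%) were called, 4 higher and 1 lower, beside 13.8% of all probes. The median log2 difference of the 27 was -0.06, beside -0.24 over all probes, and 6 of them were below background on every array. Upstream of the lipoxygenases, Pla2g4a, the cytosolic phospholipase A2 that releases arachidonic acid, was higher by 1.03 ± 0.20 (log2, SE, adjusted p = 0.00202). Cotl1, an actin-binding protein that also binds 5-lipoxygenase, was higher by 1.54 ± 0.36 (adjusted p = 0.00600). Both were the higher in OSCC in 9 of 11 pairs. Pla2g4a, at 2.04-fold, fell under the 2-fold limit on leaving out rat 11, 13, 16 or 25 and under quantile normalization (0.97), scaling to the array median (0.83) or normexp background correction (0.73).

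Downstream, Ggt1, a gamma-glutamyl transferase that converts leukotriene C4 to D4, was well above background in no normal piece and in 10 OSCC pieces. It was at least 4.99-fold higher in OSCC, a lower limit set by the dimmest signal called well above background on each normal array (adjusted p = 0.000197). This limit depends on the handling of background, since the fitted log2 difference was 4.12 as reported and 1.17 after normexp background correction. Gpr17, a receptor once linked to cysteinyl leukotrienes, was higher by 3.42 ± 0.41 (adjusted p = 0.000215) and in 11 of 11 pairs, with 7 normal pieces well above background; after normexp background correction the difference was 1.91. The receptors Cysltr1 and Cysltr2 were below background on every array, and Ltb4r2, the low-affinity leukotriene B4 receptor, had a difference of 0.16 ± 0.32 (adjusted p = 0.695).

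Mgst3, a microsomal glutathione transferase of the same family as Ltc4s, was lower by 1.71 on the log2 scale (log2 difference -1.71 ± 0.32, SE, adjusted p = 0.00171) and in 10 of 11 pairs. Its relative Mgst2, which can also make leukotriene C4, had a difference of 0.67 ± 0.25 (adjusted p = 0.0475), under 2-fold. Gpx4, the peroxidase that reduces lipid hydroperoxides, differed by -0.91 ± 0.20 (adjusted p = 0.00398), under 2-fold but with OSCC the lower tissue in 11 of 11 pairs by each of its 2 probes. Of the other genes well above background on all 22 arrays, Dpep1, Dpep2, Ephx1, Ephx3, Ptgr1, Cyp4f5, Cyp4f6 and Gpx1 had adjusted p values from 0.0760 (Ephx3) to 0.936 (Gpx1). Ggt5, a further transferase acting on leukotriene C4, differed by 0.43 ± 0.15 (adjusted p = 0.0386), under 2-fold.

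Of 19 other genes of acylceramide synthesis and the cornified lipid envelope, the pathway of Alox12b and Aloxe3, 17 were measured. Of these, 7 (41.2%) were called, 6 higher and 1 lower, beside 13.8% of all probes (6.86% higher and 6.97% lower), with a median log2 difference of 0.58 beside -0.24 over all probes. Higher were Lipn, a lipase of the granular layer (1.92 ± 0.32, SE, adjusted p = 0.00103), Pnpla1, the acylceramide synthase (1.76 ± 0.40, adjusted p = 0.00496), and Cers3, the ceramide synthase of very long chains, listed on the array as Lass3 (1.48 ± 0.29, adjusted p = 0.00240). Nipal4, Abhd5, the coactivator of Pnpla1, and Degs2, which makes phytoceramides, were higher by 1.45, 1.32 and 1.14. After normexp background correction Cers3 was alone of these 6 still called, with Lipn at 0.72. The Degs2 call was lost on leaving out rat 11, 21 or 22 and without rats 21, 22 and 24 together (0.89). Each of the 6 was the higher in OSCC in 10 or 11 of 11 pairs.

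Lower was Fa2h, which hydroxylates fatty acids (-1.34 ± 0.26, SE, adjusted p = 0.00201; -0.45 after normexp background correction, adjusted p = 0.476). Tgm1, the transglutaminase of the cornified envelope, differed by 0.80 ± 0.31 (adjusted p = 0.0552), and Ugcg, the glucosylceramide synthase, by 0.68 ± 0.17 (adjusted p = 0.0101), under 2-fold. Cyp4f39, Elovl6 and Smpd1, also well above background on all 22 arrays, had adjusted p values from 0.0615 (Cyp4f39) to 0.268 (Elovl6). The probes of Elovl4, an elongase of very long chain fatty acids, disagreed: the brightest gave 0.10 ± 0.28 (adjusted p = 0.767) and the other 3.21 ± 0.54 (adjusted p = 0.000997). For Elovl1 they gave 0.39 and 1.07, the latter a call (adjusted p = 0.00268), and for Nipal4 the dimmer probe, below background on every array, gave -0.48. The dimmer Fa2h probe gave -1.11 (adjusted p = 0.0581), not a call. For Elovl6 the brightest gave -0.35 and the other 0.68. With the next brightest probe where a gene had one, 7 envelope lipid genes were called, 7 higher and 0 lower.

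**Figure D4:**
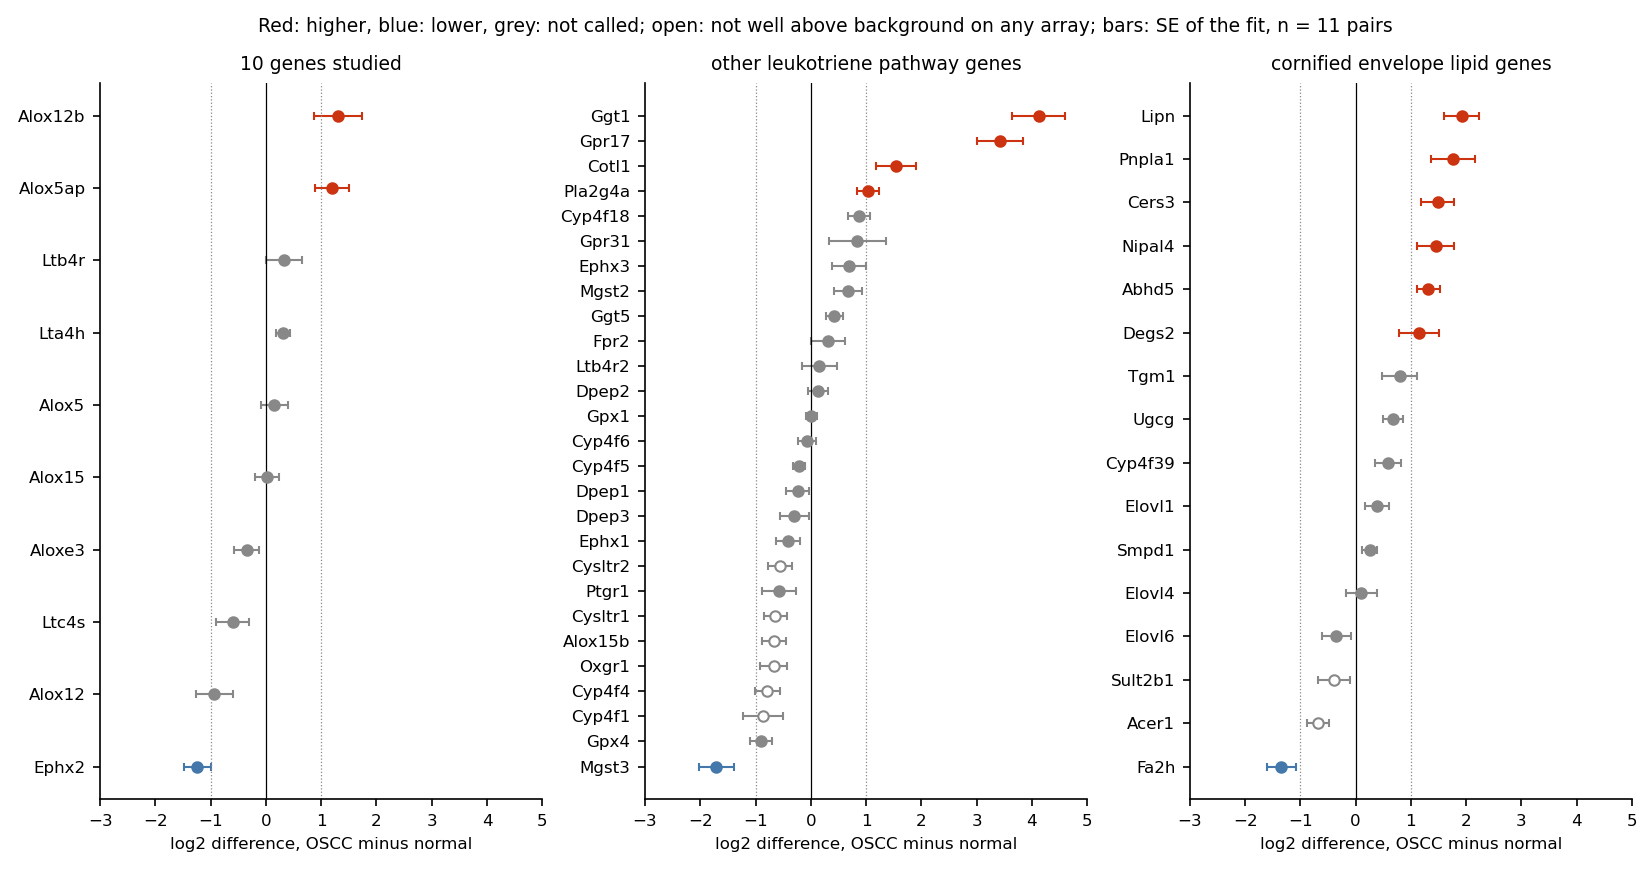
Log2 difference, OSCC minus normal, with the SE of the fit over 11 pairs for the 10 genes, the 27 other leukotriene pathway genes and the other envelope lipid genes but 1, which is not drawn (brightest probe of each). Red marks genes called higher, blue genes called lower and grey those not called; dotted lines mark 2-fold, and open circles mark genes below background on every array.

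The genes whose differences over the 11 pairs were most like those of the leukocyte and epidermal genes were taken from 11647 symbols well above background on at least 11 arrays. For Alox5ap they were Tm4sf1 (Pearson r = 0.97), Dusp1 (0.97) and Adamts2 (0.96), and for Alox5 Rhob (0.96), Lrp1 (0.95) and Fli1 (0.94). For Alox12b they were Wfdc5 (0.98), LOC682408, annotated as similar to corneodesmosin (0.98), and Lce1m, a late cornified envelope gene (0.98), all 3 called higher in OSCC with log2 differences of 1.62, 2.44 and 2.10. For Aloxe3 they were Lpin3 (0.96), Pou2f3 (0.94) and Tdh (0.93), of which Pou2f3 was lower in OSCC (log2 difference -1.22). The 4 sets shared no gene. These are the highest of many correlations over pairs of the same arrays, so no p is given.

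**Figure D5:**
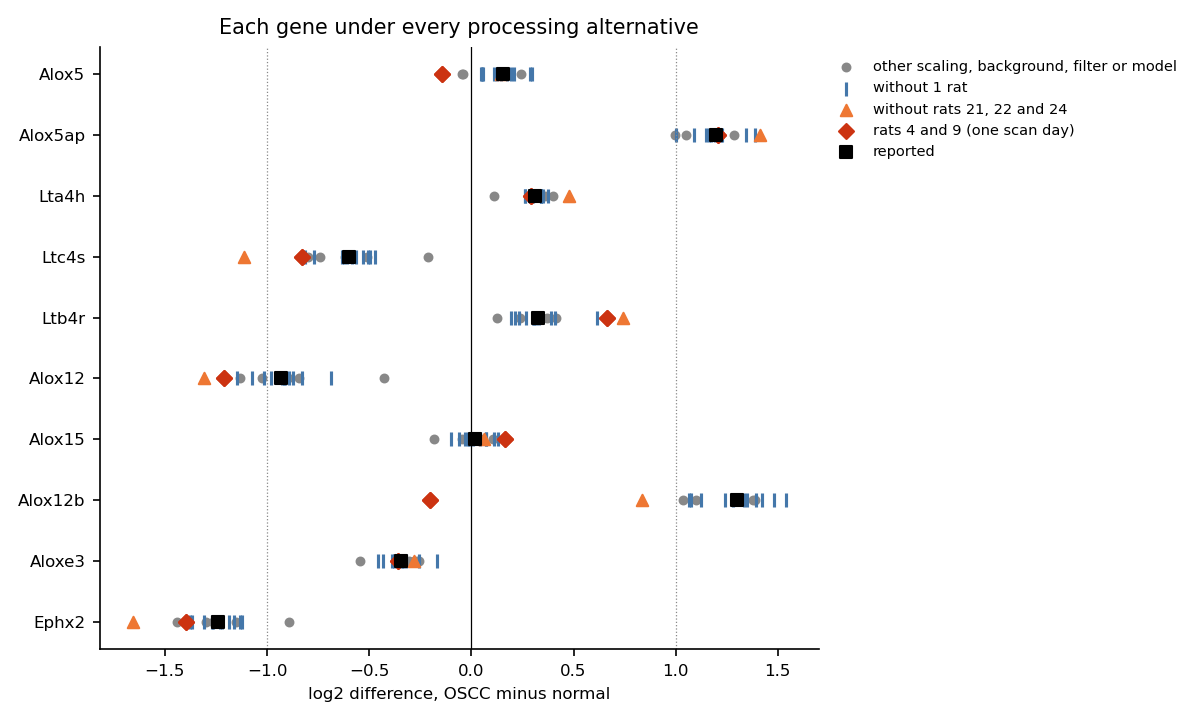
Log2 difference, OSCC minus normal, of each of the 10 genes as reported (black squares), under other scalings, background corrections, filters and models (grey), without 1 rat (blue ticks), without rats 21, 22 and 24 (orange) and in rats 4 and 9 alone, scanned on 1 day (red). Dotted lines mark 2-fold; Alox12b is at -0.20 in rats 4 and 9 against 1.30 in all rats, while Alox5ap (1.21) and Ephx2 (-1.40) are near their values over all rats.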

How the data were processed

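RNA of 22 tongue pieces was measured by the authors on one-color Agilent arrays, read with Feature Extraction 9.5.3.1 per the file headers. The deposited intensity is the processed signal, on a linear scale, after background subtraction and detrending by the authors, with arrays not yet scaled to each other. A ratio was deposited as well, the signal over the 75th percentile of its array: 99.97% of values of at least 0.5 equalled that quotient within 2%. GeneSpring, named by the authors, was not used here.

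Here, control spots and 9196 outlier spots (0.975%) were left out, replicate spots averaged as log2 signals, and each array's 75th percentile subtracted. No filter on dim probes was applied. Limma 3.58.1 in R 4.3.3 was fitted to 30367 probes with rat and tissue as terms, after a trial on simulated data. The pairing comes from the animal; deviations of the same rat's tissues had correlations of -0.21 to 0.24 (median -0.02). For genes with several probes the brightest was used. Where a group was nowhere above background, the fold is a lower limit. The number of arrays limits precision. The authors' methods name Student's t-test at the same fold.

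Named were all 10 genes, list genes called or well above background on all 22 arrays (and a few others named with their values), and the 3 genes most like each of 4; 1 uncalled envelope gene is counted but not reported here. Members, lists and markers were chosen with earlier results of these data known. Older array names were matched through RefSeq (GRCr8); Cmklr1, Abca12 and Sdr9c7 had no probe matched.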

Additional observations from a re-analysis of the deposited data

How the results depend on the processing

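The number of probes called was 4201 as reported and 1701 after normexp background correction, 6924 without rats 21, 22 and 24, and 3 with scan day as a term, a fit that rests on rats 4 and 9 by its construction. Scaling to the array median moved the calls from 2083 higher and 2118 lower to 1541 higher and 3154 lower. Of the 10 genes 3 were called as reported, 1 (Alox5ap) after normexp and 0 with scan day as a term, where 1 (Ephx2) passed 2-fold at an unadjusted p under 0.05. Of the leukotriene pathway genes, 5 were called as reported, 10 without rats 21, 22 and 24, and 0 with scan day (10 at an unadjusted p). Of the envelope lipid genes, 7 were called as reported, 1 (Cers3) after normexp, and 0 with scan day (2 at an unadjusted p). For these counts the cause of the normexp change was not tested. Leaving out each rat in turn gave 3649 to 4799 probes, 1 to 3 of the 10 genes, 4 to 6 pathway genes and 6 to 8 envelope lipid genes; the value of 1 came without rat 11, which removed the calls of Alox5ap and Alox12b. The leukocyte minus epidermal gap was 0.01 to 0.47 over these fits.

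Signs turned for genes that were not called or for Alox12b. Alox5 (0.15) was -0.047 with array medians, -0.040 with quantile normalization and -0.14 with scan day as a term. Alox15 (0.02), mostly below background, was -0.18 with array medians, -0.044 after normexp, -0.029 with quantile normalization, -0.0028 with slide as a random block and -0.10 to 0.13 on leaving out each rat. Alox12b (1.30) was -0.20 with scan day as a term and in the mean of rats 4 and 9. Its call was also lost after normexp (adjusted p = 0.137), with slide as a random block (adjusted p = 0.0646) and by a paired t-test after adjustment (adjusted p = 0.0548). At the authors' limits of p under 0.05 and 2-fold, the same t-test without adjustment passed Alox12b (p = 0.0229). The slide fit left out the rat term, and no slide held both tissues, so that it cannot separate slide from tissue. Over all fits the adjusted p of Alox12b ran from 0.0173 to 0.890.

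Without the replicate block, that is without the pairing of a rat's tissues, 4227 probes, 3 of the 10 genes, 5 pathway genes and 7 envelope lipid genes were called, and the gap was 0.20, so that no call among the 10 genes changed. Each of the 10 genes has 1 probe, so no second probe could be tried. Depth of signal limits Alox5 and Alox15 above all, which were well above background on 19 and 10 of 22 arrays.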
